A study of Homo sapiens with 9 samples.

Results

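The RNAs described here are 29 small structural RNAs of human cells: 23 small Cajal body RNAs (SCARNA), 4 vault RNAs (VTRNA), and RMRP and RPPH1, the RNA subunits of the ribonucleases MRP and P. They were chosen by gene symbol among the 14884 genes named in the value table, at any level. The rule uses no measured change, but it was set with earlier results of these data known. Of the 9 name patterns searched, 4 found a gene. The patterns for SNORA, SNORD, RNU, RN7S and RNY genes found none, so nucleolar guide RNAs, spliceosomal RNAs, 7SK, 7SL and Y RNAs were not analysed here, and the set is one of Cajal body, vault and ribonuclease RNAs rather than of small nucleolar RNAs.

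The measurements come from THP-1, an established human monocytic leukaemia line that phorbol 12-myristate 13-acetate (PMA) turns into macrophage-like, M0 cells. PMA was given to all 9 cultures, and then 3 cultures each received cisplatin at 0.5 µM, a platinum agent that crosslinks DNA, osimertinib at 100 nM, an inhibitor of the epidermal growth factor receptor kinase, or vehicle, for 16 h. Each culture's total RNA was read on its own array (Affymetrix Human Gene 2.0 ST), and the labels call the 3 replicates of a group biological. Values are log2 intensities, so a difference of 1 is a doubling. They run between 0.65 and 13.17, and the median gene had a mean of 4.28. Array number limits the precision, since each group has 3 arrays. In bulk RNA, fewer cells holding a transcript and less of it per cell cannot be told apart. Of 10 monocyte and macrophage markers, 7 were named, and 5 of these lay above the median gene, among them CD68 at 9.71 and CSF1R at 8.83 over the 9 arrays. LYZ at 3.25 and CD163 at 2.43 lay below it. Of the markers of other cell types, KRT18, KRT8 and CD8A also lay above it, while CD2, EPCAM and DCN lay below it.

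Small Cajal body RNAs guide chemical modification of the spliceosomal RNAs. Those with C and D boxes direct 2′-O-methylation and bind fibrillarin, NOP56, NOP58 and SNU13, those with H and ACA boxes direct pseudouridylation and bind dyskerin, NHP2, NOP10 and GAR1, and some carry both kinds of domain. Most are cut from introns of other genes, while vault RNAs, RMRP and RPPH1 are made by RNA polymerase III from promoters of their own. An array probe set does not tell a mature small RNA from the intron or precursor that contains it.

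Sequence around the start was at hand for 4 of the 29, through the RefSeq start window (assembly GRCh38.p14) of a neighbouring gene, since none of the 29 has an entry of its own in the table used. They are shown because they set the start of SCARNA17, the box C/D RNA described first below, beside that of 3 RNAs made by another polymerase. The plus strand of each is given 5′ to 3′, and capitals mark matches, on either strand, to TATAA (the TATA box), ATTTGCAT (the octamer), GGGCGG (the GC box) and CCAAT. The windows lie at chr18:49813773-49814072 for SCARNA17, chr5:140711026-140711325 for VTRNA1-1, chr14:20343385-20343634 for RPPH1 and chr9:35658042-35658291 for RMRP.
SCARNA17: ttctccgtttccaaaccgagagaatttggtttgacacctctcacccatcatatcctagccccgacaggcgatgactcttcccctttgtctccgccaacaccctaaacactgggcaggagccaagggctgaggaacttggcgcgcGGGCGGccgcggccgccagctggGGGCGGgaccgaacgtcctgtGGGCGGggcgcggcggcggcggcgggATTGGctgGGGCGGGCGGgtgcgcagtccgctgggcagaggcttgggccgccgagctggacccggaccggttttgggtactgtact
VTRNA1-1: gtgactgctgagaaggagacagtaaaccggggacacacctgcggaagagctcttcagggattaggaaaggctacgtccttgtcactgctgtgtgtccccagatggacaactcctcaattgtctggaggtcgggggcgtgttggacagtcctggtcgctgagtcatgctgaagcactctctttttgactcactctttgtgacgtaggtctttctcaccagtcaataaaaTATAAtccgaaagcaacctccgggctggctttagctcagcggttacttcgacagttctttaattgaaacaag
RPPH1: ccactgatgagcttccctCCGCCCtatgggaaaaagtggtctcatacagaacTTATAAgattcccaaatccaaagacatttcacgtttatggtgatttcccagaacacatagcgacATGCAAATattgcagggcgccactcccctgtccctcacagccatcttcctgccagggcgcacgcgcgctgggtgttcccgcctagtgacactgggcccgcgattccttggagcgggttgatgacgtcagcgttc
RMRP: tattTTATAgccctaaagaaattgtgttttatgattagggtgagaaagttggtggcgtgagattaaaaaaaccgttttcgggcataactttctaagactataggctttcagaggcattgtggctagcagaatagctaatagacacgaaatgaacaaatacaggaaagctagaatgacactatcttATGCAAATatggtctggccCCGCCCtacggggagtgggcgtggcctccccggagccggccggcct

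SCARNA17 shares its start with the non-coding gene SNHG22, so the first 250 of its 300 bases are upstream sequence and the last 50 belong to the RNA. They hold 5 GC boxes, of which the last pair overlaps, and 1 CCAAT, all before the start, and no TATAA. VTRNA1-1 likewise shares its start with the non-coding gene LOC105378198 and has 1 TATAA, with 17 bases between it and the start. RPPH1 and RMRP lie next to PARP2 and CCDC107 and are known to be transcribed away from them, so their own upstream sequence reads on the other strand. In RPPH1's window 27 bases are its own, with a GC box among them, TTATA stands 25 bases beyond its near edge and overlaps a TATAA on the plus strand, and an octamer stands 89 bases beyond it. RMRP ends 22 bases before its window, and TTATA, the octamer and a GC box stand 26, 207 and 226 bases beyond it. Over the 35116 windows of the table, 45.0% of those of 300 bases hold a GC box, 34.6% CCAAT, 20.4% TATAA and 1.77% the octamer, and of those cut to 250 bases 42.6%, 32.0%, 18.9% and 1.63% do. A match is a stretch of letters and was not tested for binding. PARP2 changed by -0.16 and -0.09 and CCDC107 by 0.07 and 0.03 with cisplatin and osimertinib, none past the test. ACAA2, a thiolase gene on the other side of SCARNA17's start, changed by 0.32 (adjusted p 0.133) and 0.42 (adjusted p 0.0496), and the second passed in only 2 of the 9 fits with 1 array left out (adjusted p 0.163 without osimertinib replicate 1).

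With cisplatin, 11 of the 29 small RNAs differed from vehicle, 9 higher and 2 lower, at an adjusted p under 0.05, which 14.7% of all genes reached (7.41% higher and 7.28% lower). With osimertinib, 5 of 29 were higher and 0 lower, a share of 17.2% that lies near the 14.8% of all genes (7.77% higher and 6.99% lower). Genes above the median level were called more often, so the 22 small RNAs at or above it are better read against such genes: 9 of 22 against 25.2% with cisplatin, and 5 of 22 against 25.4% with osimertinib. Both comparisons use the same 3 vehicle arrays. The arrays of the 2 groups did not overlap for 16 of 29 with cisplatin and 11 of 29 with osimertinib, against 28.7% and 28.8% of all genes. Median changes over the 29 were 0.20 with cisplatin and 0.13 with osimertinib, and over all genes 0.04 and 0.03. By class, box C/D RNAs were higher in 4 of 5 cases with cisplatin and 3 of 5 with osimertinib. The counts depend on single arrays: with cisplatin 5 passed without cisplatin replicate 2, 6 without cisplatin replicate 3 and 5 without vehicle replicate 3, and with osimertinib 3 passed without vehicle replicate 2 or 3 and 8 without cisplatin replicate 1.

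**Figure D1:**
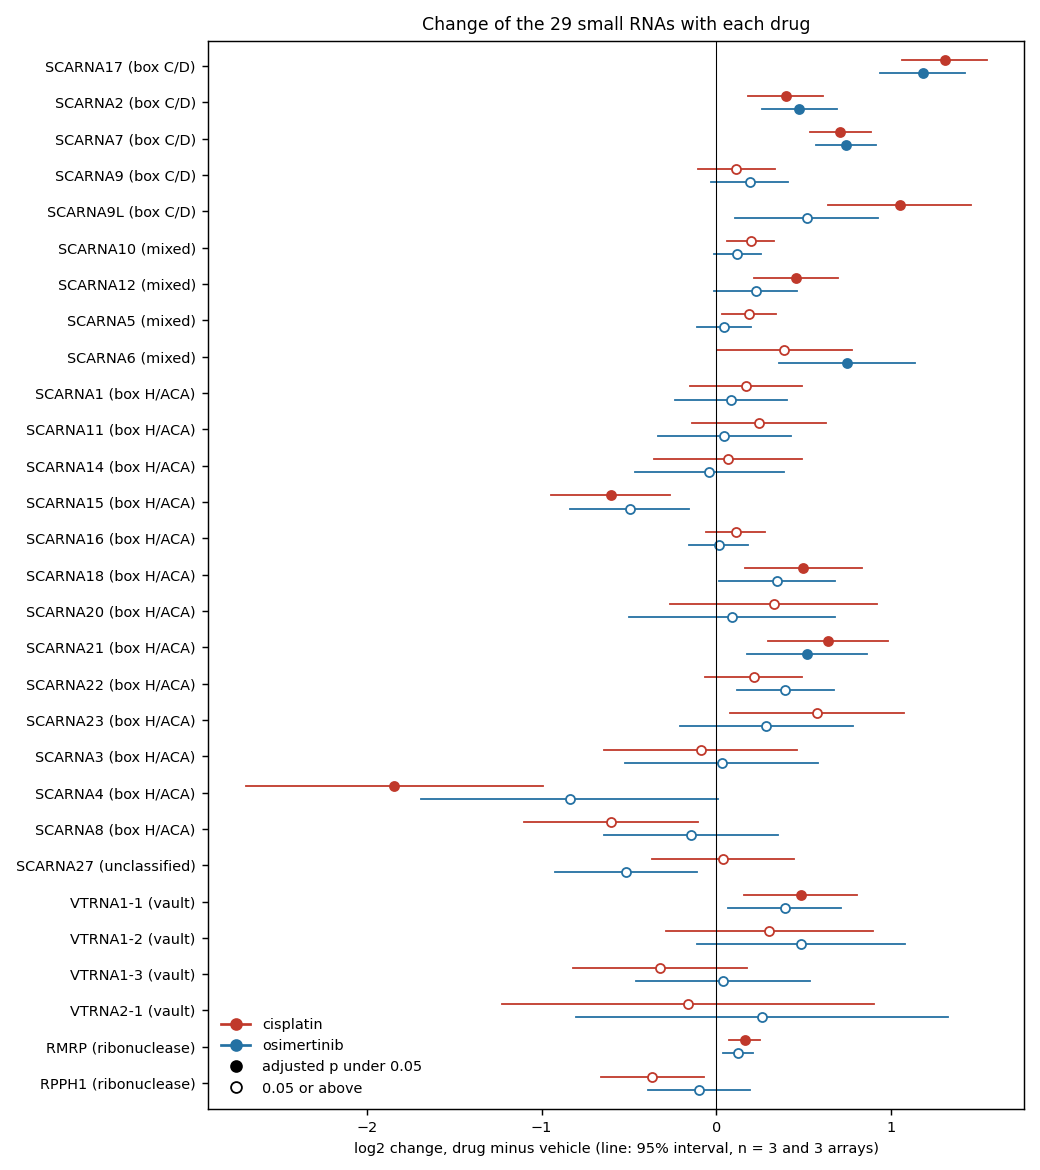
Log2 change of each of the 29 small RNAs (drug minus vehicle, 3 arrays a group), by class, with cisplatin in red and osimertinib in blue; lines are 95% intervals and filled points have an adjusted p under 0.05. SCARNA17 lies farthest to the right with both drugs, and SCARNA4 farthest to the left.

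The 3 osimertinib arrays differed from each other for these RNAs. Each array was set against the mean of the other two of its group, so that 1 deviating array also enters the values of its partners. On osimertinib replicate 1, 9 of 29 (31.0%) read at least 0.5 above that mean and 0 as far below, while over all genes 1.85% were as far above and 1.26% as far below. On osimertinib replicate 2, 1 was as far above and 7 as far below, in all 27.6% against 3.86% of genes, and on replicate 3, 0 were above and 5 below, in all 17.2% against 3.18% of genes. The cisplatin and vehicle arrays had 0 to 4 such RNAs each. On cisplatin replicate 2 these were 13.8%, against 2.84% of genes, and on vehicle replicate 1 10.3%, against 2.67%. Only cisplatin replicate 3 had a share below that of all genes (0% against 2.14%), so a wider spread of these RNAs is not particular to osimertinib. The largest single gap of the 9 arrays was on osimertinib replicate 1. On osimertinib replicate 1, of 1088 microRNA genes, also short, 4.60% were above and 4.04% below. The gap there was 2.04 for VTRNA2-1, 1.78 for SCARNA4 and 1.19 each for SCARNA3 and VTRNA1-2, and the others were SCARNA20, SCARNA8, SCARNA11, RPPH1 and SCARNA6. They comprise 5 of 13 box H/ACA RNAs, 2 of 4 vault RNAs and 1 of 4 mixed RNAs, and 0 of 5 box C/D RNAs. What makes these arrays differ was not tested. Without osimertinib replicate 2 or 3, 5 and 4 of 29 passed with osimertinib, all higher. Without replicate 1, 5 of 29 passed with osimertinib: SCARNA17, SCARNA7 and SCARNA2 higher, and SCARNA4 and SCARNA3 lower. With cisplatin 12 passed, 8 higher and 4 lower, with SCARNA8 and RPPH1 added and SCARNA18 lost. For the 29 RNAs, calls that replicate 1 changes are given with and without it.

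**Figure D2:**
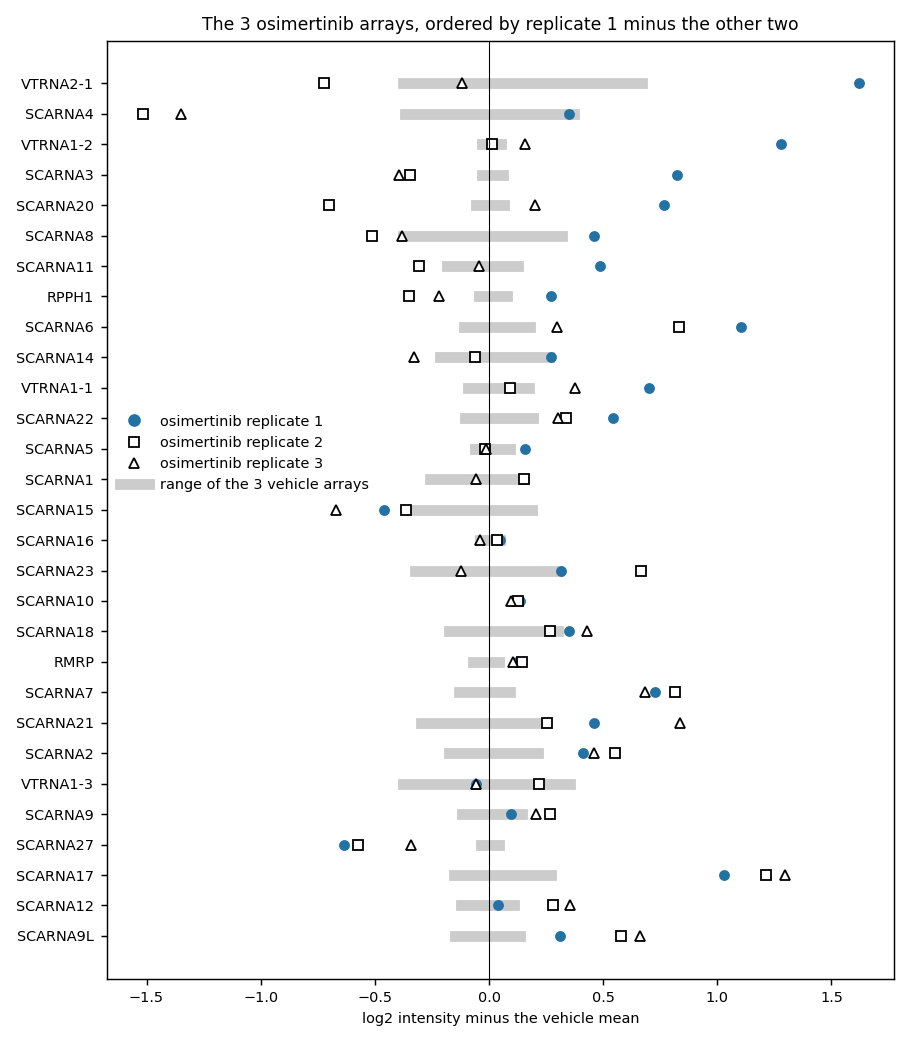
Log2 intensity of each small RNA on the 3 osimertinib arrays minus its vehicle mean, ordered by replicate 1 minus the mean of the other two; grey bars span the 3 vehicle arrays. From VTRNA2-1 down to SCARNA6, replicate 1 (blue) lies to the right of the other osimertinib arrays, and for the box C/D RNAs it does not.

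Of the 5 box C/D RNAs, SCARNA17, SCARNA7, SCARNA2 and SCARNA9L rose with cisplatin, and all of these but SCARNA9L also with osimertinib. SCARNA17, which guides methylation of spliceosomal RNA, measured 8.90, 9.10 and 9.12 with cisplatin and 8.77, 8.95 and 9.03 with osimertinib, against 7.62, 8.01 and 7.58 with vehicle. Every array of either drug exceeded every vehicle array, and the lowest drug array stood well above the highest vehicle array. The change was 1.31 (SE 0.11, adjusted p 2.05e-05), or 2.47-fold, with cisplatin and 1.18 (SE 0.11, adjusted p 3.99e-05), or 2.26-fold, with osimertinib. It passed in each fit that left out 1 array.

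SCARNA7, another methylation guide, measured 7.98, 8.08 and 8.22 with cisplatin and 8.11, 8.20 and 8.07 with osimertinib, against 7.48, 7.43 and 7.26 with vehicle. The drug arrays again lay above all vehicle arrays. Changes were 0.71 (SE 0.079, adjusted p 1.26e-04) with cisplatin and 0.74 (SE 0.079, adjusted p 9.49e-05) with osimertinib, and both passed with any 1 array left out.

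SCARNA2, one of the few Cajal body RNAs made from a gene of its own, and inside no other gene's span here, measured 6.60, 6.69 and 6.67 with cisplatin and 6.67, 6.81 and 6.72 with osimertinib, against 6.22, 6.47 and 6.08 with vehicle. The groups did not overlap, though vehicle replicate 2 came close to the cisplatin arrays. It rose by 0.40 (SE 0.097, adjusted p 0.0174) with cisplatin and 0.47 (SE 0.097, adjusted p 0.00639) with osimertinib. The osimertinib call held with any 1 array left out, and the cisplatin call was lost without vehicle replicate 3 (adjusted p 0.0727), among others.

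SCARNA9L is a like copy of SCARNA9, and the array may not keep the pair apart. It measured 4.24, 5.05 and 4.83 with cisplatin and 3.97, 4.24 and 4.32 with osimertinib, against 3.80, 3.51 and 3.67 with vehicle. Both drug groups lay above vehicle, with the cisplatin arrays spread more widely. It rose by 1.05 (SE 0.19, adjusted p 0.00268) with cisplatin, in every fit with 1 array left out, and its 0.52 with osimertinib did not pass (adjusted p 0.0950). SCARNA9 itself measured 7.41, 7.74 and 7.74 with cisplatin and 7.61, 7.78 and 7.72 with osimertinib, against 7.40, 7.66 and 7.49 with vehicle. These groups overlapped, and its changes of 0.11 and 0.19 did not pass (adjusted p 0.528 and 0.268).

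**Figure D3:**
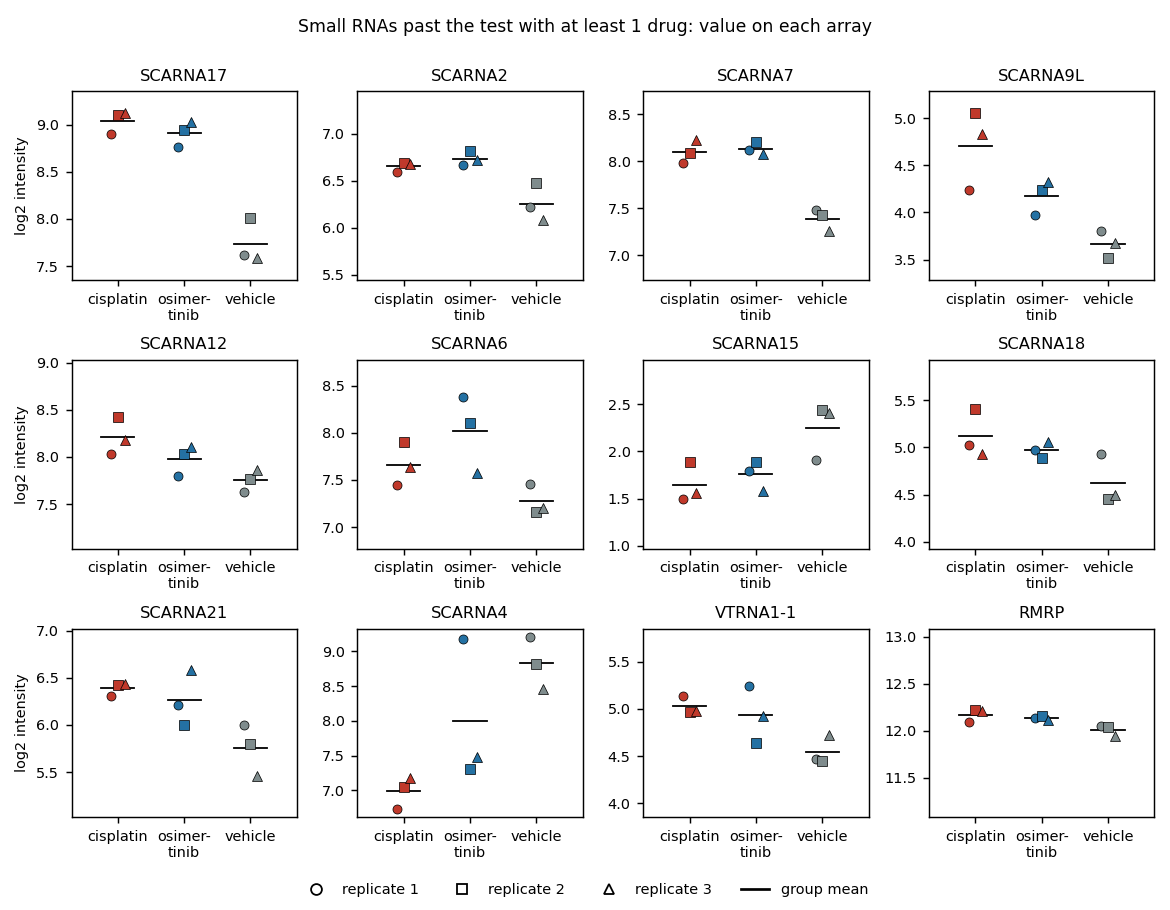
Log2 intensity on each of the 9 arrays for the 12 small RNAs past the test with at least 1 drug; each point is 1 array, its shape gives the replicate number and bars are group means. The panels have separate axes, so levels of different RNAs cannot be compared. Both drug groups lie above vehicle without overlap for SCARNA17, SCARNA7, SCARNA2, SCARNA9L, SCARNA21 and RMRP, and below it for SCARNA15.

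Of the 4 mixed-domain RNAs, 1 rose with each drug, and all 4 values were above 0 with both. SCARNA12 measured 8.03, 8.42 and 8.18 with cisplatin and 7.79, 8.03 and 8.11 with osimertinib, against 7.63, 7.77 and 7.87 with vehicle. The cisplatin arrays stood clear of vehicle and the osimertinib arrays did not. It rose by 0.46 (SE 0.11, adjusted p 0.0149) with cisplatin, a call lost without vehicle replicate 1 (adjusted p 0.0654), and changed by 0.22 (adjusted p 0.223) with osimertinib.

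SCARNA6 measured 7.45, 7.90 and 7.64 with cisplatin and 8.38, 8.11 and 7.58 with osimertinib, against 7.46, 7.17 and 7.21 with vehicle. All 3 osimertinib arrays exceeded vehicle, replicate 1 by the most, while the lowest cisplatin array lay within the vehicle range. It rose by 0.75 (SE 0.18, adjusted p 0.0144) with osimertinib, and without osimertinib replicate 1 the change was 0.57 (adjusted p 0.0566). With cisplatin it was 0.39 (adjusted p 0.188). SCARNA5, which lies in the same gene as SCARNA6, differed by 0.19 and 0.04, with adjusted p 0.108 and 0.778.

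SCARNA10, known as a guide of both kinds for one spliceosomal RNA, measured 7.24, 7.30 and 7.37 with cisplatin and 7.25, 7.24 and 7.20 with osimertinib, against 7.11 on all 3 vehicle arrays. Neither drug group overlapped vehicle, but the differences were 0.20 and 0.12 and did not pass (adjusted p 0.0525 and 0.25).

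The 13 box H/ACA RNAs went both ways: 2 rose and 2 fell with cisplatin, and 1 rose with osimertinib. Of the 29, SCARNA4 had the largest change with cisplatin. It measured 6.73, 7.04 and 7.18 with cisplatin and 9.18, 7.31 and 7.48 with osimertinib, against 9.20, 8.82 and 8.46 with vehicle. All cisplatin arrays were far below vehicle. Of the osimertinib arrays, replicates 2 and 3 lay close to the cisplatin arrays and replicate 1 at the level of vehicle.

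SCARNA4 fell by 1.84 (SE 0.39, adjusted p 0.00729) with cisplatin, to 0.279 of its vehicle level, and passed with any 1 array left out. With osimertinib the change was -0.84 (SE 0.39, adjusted p 0.199) over 3 arrays and -1.43 (SE 0.19, adjusted p 0.001) without osimertinib replicate 1, so that 1 array decides the call.

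SCARNA15, which is also known to be cut into a microRNA-like fragment, had values low on the scale: 1.50, 1.89 and 1.56 with cisplatin and 1.80, 1.89 and 1.58 with osimertinib, against 1.91, 2.44 and 2.41 with vehicle. The drug arrays lay below all vehicle arrays, the nearest pair by a few hundredths. It fell by 0.60 (SE 0.16, adjusted p 0.0221) with cisplatin, lost without vehicle replicate 3 (adjusted p 0.0942), and differed by -0.50 (adjusted p 0.0547) with osimertinib. Intensities this low were not checked against a background measurement.

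SCARNA21, which lies within the chromatin remodeller gene CHD3, measured 6.30, 6.43 and 6.43 with cisplatin and 6.21, 6.004 and 6.59 with osimertinib, against 6.001, 5.80 and 5.45 with vehicle. Cisplatin arrays cleared vehicle, and the lowest osimertinib array lay just above the highest vehicle array. It rose by 0.64 (SE 0.16, adjusted p 0.0174) with cisplatin and 0.52 (SE 0.16, adjusted p 0.0471) with osimertinib. Without vehicle replicate 3 the adjusted p was 0.0756 with cisplatin and 0.181 with osimertinib. The osimertinib call was also lost without osimertinib replicate 1 (adjusted p 0.0927).

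SCARNA18 measured 5.03, 5.41 and 4.93 with cisplatin and 4.98, 4.89 and 5.05 with osimertinib, against 4.93, 4.45 and 4.50 with vehicle. The lowest cisplatin array (4.933) lay just above the highest vehicle array (4.927), and 1 osimertinib array lay below it. It rose by 0.50 (SE 0.15, adjusted p 0.0487) with cisplatin, a call that only 2 of the 9 fits with 1 array left out kept (adjusted p 0.174 without cisplatin replicate 2), and changed by 0.35 (adjusted p 0.171) with osimertinib.

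The other 9 box H/ACA RNAs did not pass with either drug, with changes between -0.60 (SCARNA8) and 0.57 (SCARNA23) with cisplatin and between -0.14 (SCARNA8) and 0.39 (SCARNA22) with osimertinib. Leaving out osimertinib replicate 1 changed calls for a pair of them. SCARNA8 measured 6.73, 6.95 and 6.85 with cisplatin and 7.91, 6.94 and 7.07 with osimertinib, against 7.77, 7.50 and 7.07 with vehicle. Its cisplatin arrays lay below vehicle, and its adjusted p with cisplatin was 0.108 with that array and 0.0213 without. SCARNA3 measured 7.89, 6.72 and 6.67 with osimertinib, against 7.12, 7.03 and 7.03 with vehicle, so replicate 1 was above all vehicle arrays and the other two below. Its change with osimertinib was 0.03 (adjusted p 0.965) with that array and -0.37 (adjusted p 0.0451) without. SCARNA27, which carries no class here, measured 4.90, 4.96 and 5.20 with osimertinib, against 5.50, 5.58 and 5.53 with vehicle. It lay below vehicle on all 3 osimertinib arrays, by 0.52, but did not pass (adjusted p 0.0911).

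Vault RNAs of the VTRNA1 group are bound by the La protein and found in the vault particle. VTRNA1-1, known as a riboregulator of autophagy, measured 5.14, 4.96 and 4.98 with cisplatin and 5.25, 4.64 and 4.92 with osimertinib, against 4.46, 4.45 and 4.72 with vehicle. The cisplatin arrays were all above vehicle and the lowest osimertinib array was not. It rose by 0.48 (SE 0.15, adjusted p 0.0484) with cisplatin, kept in 2 of the 9 fits with 1 array left out (adjusted p 0.145 without vehicle replicate 2), and changed by 0.39 (adjusted p 0.109) with osimertinib. The other three vault RNAs did not pass with either drug. VTRNA1-2 measured 3.87, 2.60 and 2.74 with osimertinib, against 2.57, 2.55 and 2.64 with vehicle, and VTRNA2-1, known as a ligand of the kinase PKR, 6.05, 3.71 and 4.31 with osimertinib, against 5.10, 4.06 and 4.14 with vehicle. In both, replicate 1 of osimertinib was the highest of the 9 arrays. With osimertinib VTRNA1-2 changed by 0.48, and by 0.09 without that array, and VTRNA2-1 by 0.26 and -0.42. VTRNA1-3 changed by -0.32 with cisplatin and 0.04 with osimertinib.

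RMRP, whose enzyme cleaves precursor ribosomal RNA, measured 12.09, 12.22 and 12.21 with cisplatin and 12.14, 12.16 and 12.12 with osimertinib, against 12.06, 12.04 and 11.94 with vehicle. The groups did not overlap, though the steps were small. It rose by 0.16 (SE 0.039, adjusted p 0.0170) with cisplatin, 1.12-fold, a call lost without cisplatin replicate 2 (adjusted p 0.0768) and without the trend and robust fitting of the variance (adjusted p 0.210). With osimertinib the change was 0.13 (adjusted p 0.0560).

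RPPH1, whose enzyme removes the leader of precursor transfer RNA, measured 6.03, 5.98 and 6.06 with cisplatin and 6.66, 6.04 and 6.17 with osimertinib, against 6.35, 6.47 and 6.35 with vehicle. Its cisplatin arrays were all below vehicle, by 0.37, at an adjusted p of 0.0969, and of 0.0105 without osimertinib replicate 1. Its osimertinib arrays overlapped vehicle, with a change of -0.10 (adjusted p 0.712), and of -0.29 (adjusted p 0.0638) without osimertinib replicate 1.

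The drugs were also set against each other, osimertinib minus cisplatin. None of the 29 passed (0 of 29 by limma, against 0.511% of all genes, 0.222% higher and 0.289% lower), and 3 had an unadjusted p under 0.05. Arrays of the 2 drugs did not overlap for 2 of 29, SCARNA4 (osimertinib higher) and SCARNA27 (osimertinib lower), against 10.8% of all genes. For SCARNA4 the difference was 1.01 with a 95% interval of 0.16 to 1.86 (adjusted p 0.479), and 0.41 without osimertinib replicate 1. SCARNA27 differed by -0.56, with an interval of -0.96 to -0.15, and SCARNA9L by -0.53, with an interval of -0.94 to -0.12. Intervals were narrow for RMRP (-0.12 to 0.05) and SCARNA7 (-0.14 to 0.21), and for SCARNA17 the interval was -0.37 to 0.12. They were wide for VTRNA2-1 (-0.64 to 1.49) and SCARNA20 (-0.83 to 0.35), for which these arrays leave a difference of either sign possible.

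The RNAs also differ in length. By RefSeq they run between 88 and 421 bases. Of the 7 with 300 bases or more, 4 rose and 0 fell with cisplatin (median 0.40), and 3 rose with osimertinib (median 0.47). Of the 16 under 150 bases, 3 rose and 2 fell with cisplatin (median 0.14), and 1 rose with osimertinib (median 0.07). Over all genes 7.41% rose and 7.28% fell with cisplatin, and 7.77% rose and 6.99% fell with osimertinib. Among genes at or above the median level, 25.2% and 25.4% passed in either direction. Length and class go together, since all 5 box C/D RNAs are in the longest group and 11 of the 13 box H/ACA RNAs in the shortest, so they cannot be told apart here.

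Most of these RNAs lie within another gene, and the values of that gene can be set beside theirs. By RefSeq positions 25 of 29 lie inside the span of a gene, with strand not checked, and 4 (SCARNA2, VTRNA2-1, RMRP and RPPH1) in none. For 13 the enclosing gene is also named in the table. Signs of the 2 changes were opposite in 6 of the 13 pairs with each drug, and Spearman's rho over the 13 was 0.46 with cisplatin and 0.43 with osimertinib, as a description of points that share arrays. In 1 pair both members rose: KPNA4, an importin that carries cargo into the nucleus, changed by 0.60 and 0.62 (adjusted p 0.00189 and 0.00153) with cisplatin and osimertinib, beside 0.71 and 0.74 for SCARNA7 within it. KHDC4, an RNA-binding protein gene around SCARNA4, fell by 0.43 and 0.46 (adjusted p 0.00186 and 0.00124), and SCARNA4 changed by -1.84 and -0.84.

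Other pairs parted. CEP295, a centriole gene, fell by 0.69 and 0.61 (adjusted p 0.00608 and 0.0127), while SCARNA9 within it measured changes of 0.11 and 0.19. NSD2, a histone methyltransferase, fell by 0.59 and 0.54 (adjusted p 0.00119 and 0.00197), and SCARNA22 had 0.21 and 0.39. CHD3 was at 0.02 with both drugs beside SCARNA21 at 0.64 and 0.52, and PHB2, a mitochondrial scaffold gene, at 0.05 and 0.04 beside SCARNA12 at 0.46 and 0.22. ATG16L1, an autophagy gene that holds both SCARNA5 and SCARNA6, changed by 0.18 and 0.09 and did not pass. SCARNA5 lay close to it at 0.19 and 0.04, while SCARNA6 had 0.39 and 0.75. CHD4, around SCARNA11, fell by 0.20 with osimertinib (adjusted p 0.0433), a call lost without osimertinib replicate 3 (adjusted p 0.148). The differences between an RNA and its enclosing gene were not tested.

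**Figure D4:**
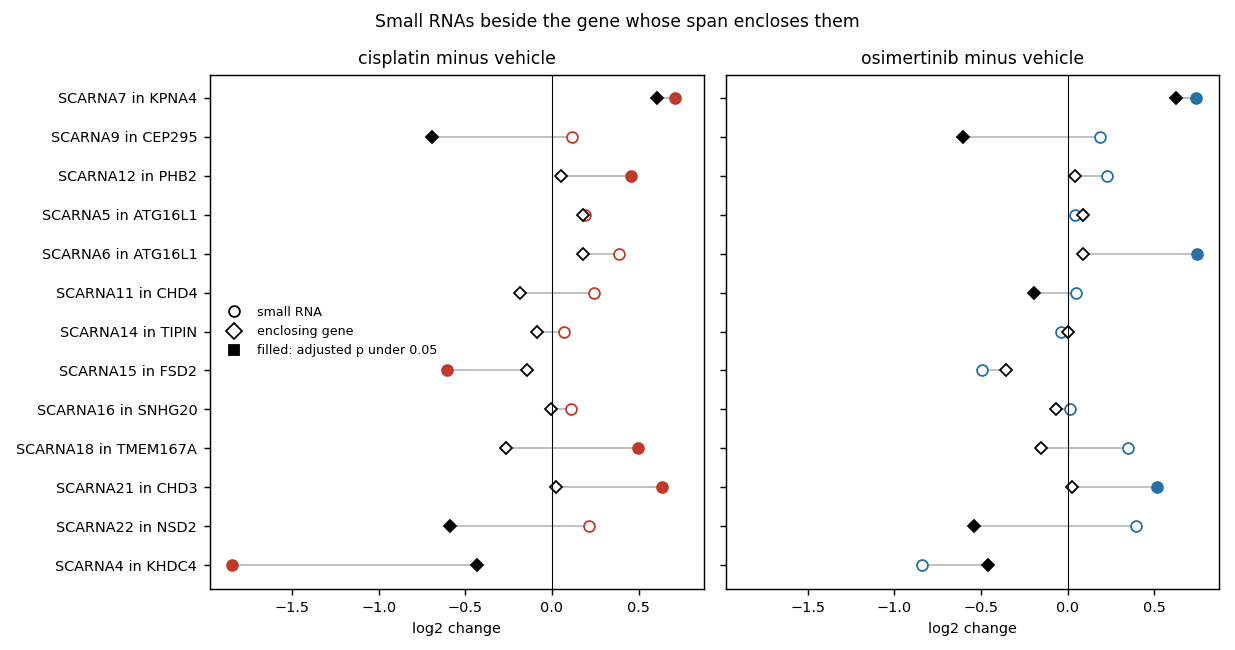
Log2 change of 13 small RNAs (circles) and of the gene whose span encloses each (black diamonds), drug minus vehicle, for cisplatin and osimertinib; filled symbols have an adjusted p under 0.05. SCARNA7 and KPNA4 lie together on the right with both drugs, while SCARNA9 and SCARNA22 lie to the right of CEP295 and NSD2.

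The proteins that hold these RNAs were read only through the RNA of their genes, in lists of pathway genes, and no protein was measured. With cisplatin the lists' median changes lay between -0.22 (box C/D core proteins) and 0.36 (box H/ACA core proteins), against 0.04 over all genes. With osimertinib they lay between -0.17 (trimming and decay) and 0.28 (vault, Y and signal recognition particle proteins), against 0.03 over all genes. Of the 129 named genes of all lists 30 (23.3%) passed with cisplatin and 35 (27.1%) with osimertinib. Of all genes 14.7% and 14.8% passed, and 25.2% and 25.4% of those at or above the median level. The lists as a whole, and several of the counts, lie near the share among brighter genes. The lists also hold genes below the median level, so the 2 sets are not matched by level. Of 4 box C/D core proteins 3 were named. FBL, fibrillarin, the methyltransferase of the box C/D particle, averaged 6.34 ± 0.15 with cisplatin and 6.15 ± 0.014 with osimertinib, against 5.37 ± 0.13 with vehicle (SD, n = 3 each). It rose by 0.97 (adjusted p 7.23e-05) and 0.78 (adjusted p 2.88e-04). NOP58 fell by 0.35 with osimertinib (adjusted p 0.0303), a call lost without vehicle replicate 1 (adjusted p 0.116), and SNU13 changed by -0.25 and -0.17 without passing. Of 3 named box H/ACA core proteins, NOP10 rose by 0.40 and 0.38 (adjusted p 0.0210 and 0.0296), lost without cisplatin replicate 2 (adjusted p 0.0863) and vehicle replicate 2 (adjusted p 0.0949), and GAR1 (0.36 and 0.23) and NHP2 (0.02 and 0.00) did not pass.

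Among 10 named genes for assembly factors of these particles 3 (30%) rose and 0 fell with each drug. Of all genes 7.41% rose with cisplatin and 7.77% with osimertinib. Among genes at or above the median level, 25.2% and 25.4% passed in either direction. NUFIP1, a scaffold, rose by 0.53 and 0.52, RPAP3, a chaperone adaptor, by 0.35 and 0.53, and RUVBL2, an ATPase, by 0.48 and 0.33, of which the last was lost without osimertinib replicate 1 (adjusted p 0.115). Of 9 named genes of the Cajal body and the SMN complex, which loads spliceosomal RNAs with protein, 2 (22.2%) rose and 0 fell with each drug. DDX20 rose by 0.77 and 0.70 and STRAP by 0.59 and 0.62. COIL, coilin, the scaffold of the Cajal body, changed by 0.36 and 0.31 and did not pass.

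Genes for proteins of the vault and of other small RNAs rose in 4 of 8 named cases (50%) and fell in 0 with each drug. Of all genes 7.41% rose with cisplatin and 7.77% with osimertinib. Among genes at or above the median level, 25.2% and 25.4% passed in either direction. MVP, the major vault protein, averaged 6.65 ± 0.11 with cisplatin and 6.74 ± 0.12 with osimertinib, against 5.79 ± 0.073 with vehicle (SD, n = 3 each), and rose by 0.86 (adjusted p 8.98e-05) and 0.95 (adjusted p 4.04e-05). SSB, the La protein, rose by 0.50 and 0.53 (adjusted p 0.00178 and 0.00128), and SRP14 of the signal recognition particle by 0.45 and 0.38. Of 9 named genes of RNA polymerase III, POLR3C fell by 0.38 and 0.52 and POLR3GL rose by 0.42 and 0.59. The cisplatin call of POLR3C was lost without vehicle replicate 3 (adjusted p 0.0774), among others. That of POLR3GL was kept in only 1 of the 9 fits with 1 array left out (adjusted p 0.173 without vehicle replicate 1). MAF1, the repressor of the polymerase, rose by 0.45 with osimertinib, lost without osimertinib replicate 2 (adjusted p 0.114). Of 7 named ribonuclease P and MRP proteins, RPP25L rose by 0.54 with cisplatin (adjusted p 0.0214, and 0.0707 without cisplatin replicate 1), and with osimertinib 0 passed by limma and 1 had an unadjusted p under 0.05.

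Genes for the RNAs that Cajal body RNAs modify, and for their processing, gave calls in both directions or none. Of 7 named genes of Sm and LSm proteins 0 passed by limma with either drug, and 0 and 2 had an unadjusted p under 0.05. Of 22 genes of spliceosomal particle proteins 0 rose and 2 fell with cisplatin (9.09%), and 2 rose and 2 fell with osimertinib (18.2%). Of all genes 14.7% and 14.8% passed, and 25.2% and 25.4% of those at or above the median level. SNRPA, which binds the U1 RNA, fell by 0.41 and 0.59, the first lost without vehicle replicate 3 (adjusted p 0.0957). Of 15 genes of spliceosomal RNA transcription and cleavage 1 rose and 3 fell with each drug (26.7%). INTS3, an Integrator subunit, fell by 0.73 and 0.65 and ICE1 by 0.53 and 0.49. Among proteins of 7SK, MEPCE, which caps that RNA, rose by 1.21 and 1.05 (adjusted p 2.77e-05 and 7.59e-05) and CCNT2 fell by 0.50 and 0.43, in the second case not without vehicle replicate 2 (adjusted p 0.103).

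Trimming and decay factors were split as well. Of 19 named, 1 rose and 3 fell with cisplatin (21.1%), and 3 rose and 3 fell with osimertinib (31.6%). Among genes at or above the median level, 25.2% and 25.4% passed. TENT4A, a poly(A) polymerase that tails small RNAs for decay, fell by 0.77 and 0.68 (adjusted p 6.93e-05 and 1.58e-04), EXOSC3 of the exosome fell by 0.63 and 0.65, and DIS3, its nuclease, rose by 0.43 and 0.50, the first lost without cisplatin replicate 3 (adjusted p 0.0590).

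Host genes of nucleolar guide RNAs that make no protein fell in 4 of 11 named cases (36.4%) and rose in 0 with each drug. Of all genes 7.28% fell with cisplatin and 6.99% with osimertinib. Among genes at or above the median level, 25.2% and 25.4% passed in either direction. GAS5, a host of box C/D RNAs, averaged 5.62 ± 0.21 with cisplatin and 5.80 ± 0.21 with osimertinib, against 6.81 ± 0.11 with vehicle (SD, n = 3 each), and fell by 1.18 (adjusted p 1.09e-04) and 1.01 (adjusted p 3.17e-04). SNHG5 fell by 0.91 and 1.03, ZFAS1 by 0.57 and 0.45, and SNHG8 by 0.30 and 0.38. The cisplatin call of SNHG8 was kept in 4 of the 9 fits with 1 array left out (adjusted p 0.112 without vehicle replicate 2). In osimertinib minus cisplatin, 0 of the 129 named genes of these lists passed by limma, and 3 had an unadjusted p under 0.05.

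**Figure D5:**
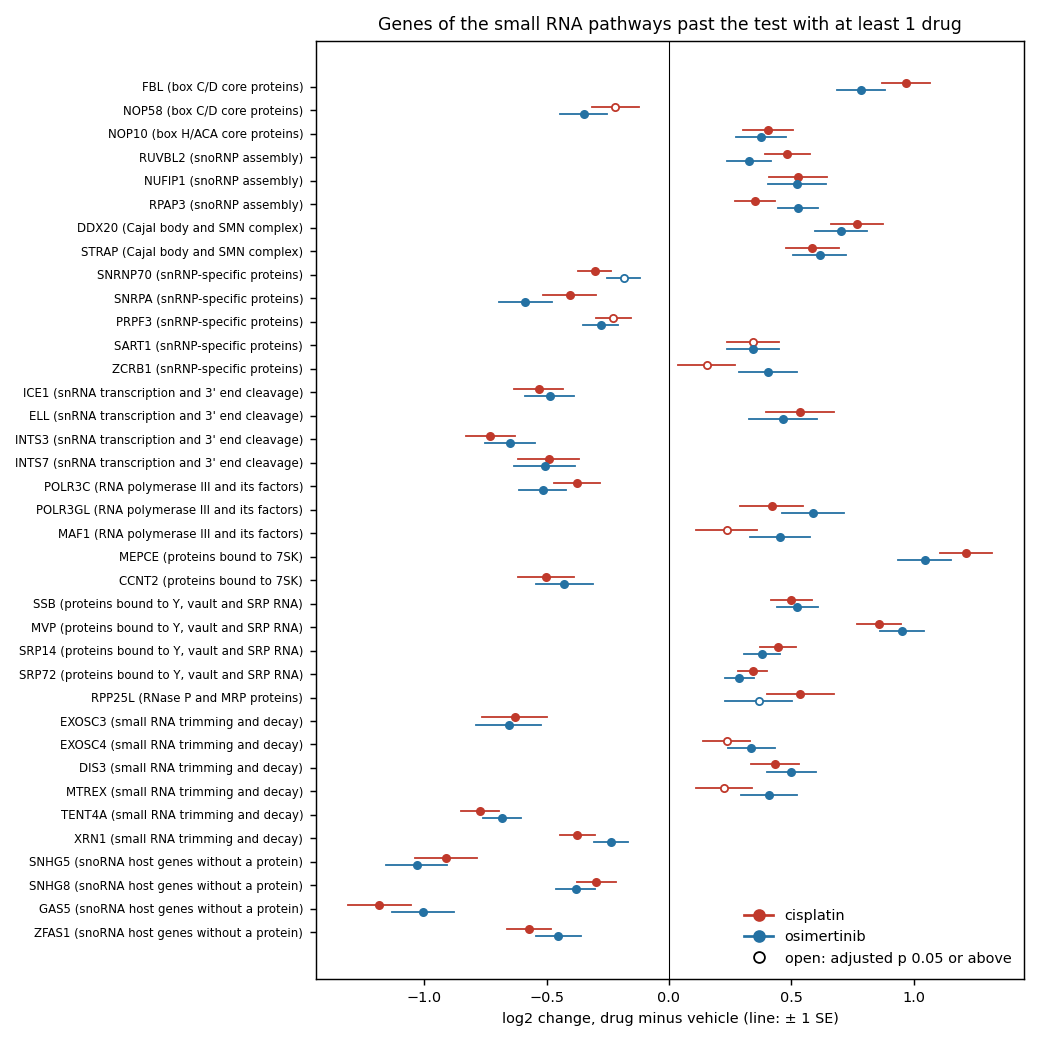
Log2 change (drug minus vehicle, with 1 SE) of each gene of the pathway lists that passed the test with at least 1 drug, cisplatin in red and osimertinib in blue; open points have an adjusted p of 0.05 or above. MEPCE, FBL and MVP lie farthest to the right and GAS5 and SNHG5 farthest to the left.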

How the data were processed

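The deposited values are log2 intensities of 9 arrays in 1 table of 53617 rows, summarised at gene level by a service provider, per the labels' design text; per the submitters' processing notes Affymetrix Power Tools was used, without a version. Neither the background correction nor the log base is stated in the labels, and log2 was inferred from the range of values. GEO's platform annotation, possibly outdated, gave 16098 rows a gene name, for 14884 genes in all. The row with the highest mean was kept for a gene with several, and each of the 29 RNAs has 1 row. No level limit was set.

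Groups were compared with limma 3.58.1 (R 4.3.3) in 1 model of 3 group means with 6 degrees of freedom left for the spread, using eBayes with trend and robust fitting, two-sided, with Benjamini-Hochberg adjustment over all 14884 genes and calls under 0.05. Tested on simulated data with 14884 genes, it recovered 92.5% of changes of 1 and 41.8% of changes of 0.5 for cisplatin, and 89.6% and 49.3% for osimertinib. The simulation changed 200 genes, far fewer than the 2186 and 2198 called in the data, and the adjusted p depends on that number. Its rates are for genes in general, while these RNAs spread more widely on most arrays, so they are only a rough guide here. Changes of 0.25 were recovered in 1.52% and 0% of cases, so small RNAs that did not pass may still have moved by 0.25 or 0.5. Those with wide intervals may have moved by more, such as VTRNA2-1 with cisplatin (95% interval -1.23 to 0.90).

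Exact ties occur: all 3 arrays of some group shared a value for 728 genes but for 0 of the 29 RNAs, and 2 arrays did for 4 of the 29. The RNAs named are those called with a drug, the vault and ribonuclease RNAs, and RNAs of each class at the ends of its range, with up to 3 called genes of smallest p per pathway list, and a few added after their values were seen (SNU13, GAR1, NHP2, COIL, SNHG8, ACAA2, and the RNAs and enclosing genes whose values part). The 29 RNAs, the pathway lists and the markers were chosen with earlier results of these data known. Enclosing genes come from RefSeq positions of GRCh38.p14, without strand, since the table gives no strand for the RNAs. Same-numbered replicates were checked for pairing: 9 correlations of their deviations ran between -0.114 and 0.059, and 0 exceeded 0.1, so no pairing was used. Alternatives covered the level filter, rows, scaling, model and each array left out.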

Additional observations from a re-analysis of the deposited data

How the results depend on the processing

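Counts of called small RNAs and genes moved by more than 1.5 times under some settings. Limited to genes at or above the median level, 8 small RNAs passed with osimertinib, and 130 genes between the drugs. Over all rows of the table, 5295 genes and 7 small RNAs passed with cisplatin, 5144 genes with osimertinib and 35 between the drugs. Without the trend and robust fitting 34 genes passed between the drugs. With quantile normalization added, 10 small RNAs passed with osimertinib and 157 genes between the drugs, and with each array centred on its median 45 genes did. With only the 6 arrays compared, 8 small RNAs passed with osimertinib and 24 genes between the drugs. The cause of these shifts was not tested, beyond fewer arrays or another number of genes tested.

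The split of calls also moved: with quantile normalization 1854 genes were higher and 1008 lower with cisplatin, and 1912 and 980 with osimertinib; with centring 1217 and 814, and 1501 and 753; over all rows 1870 and 3425, and 1857 and 3287. The main split was 1103 and 1083, and 1157 and 1041.

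The groups share only replicate numbers. With the number as a block, 1955, 1961 and 42 genes passed with cisplatin, with osimertinib and between the drugs, and 11, 5 and 0 small RNAs. Leaving out 1 array at a time gave 1588 to 2147 genes and 5 to 12 small RNAs with cisplatin, 1610 to 2399 genes and 3 to 8 small RNAs with osimertinib, and 28 to 77 genes and 0 small RNAs between the drugs. Median changes of the small RNAs ranged over 0.16 to 0.24, 0.09 to 0.20 and -0.11 to 0.012.

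HEXIM1, a 7SK protein gene with several rows, changed by 0.23 and 0.21 on its brightest row and by -0.46 (adjusted p 0.00660) and -0.33 (adjusted p 0.0343) on the mean of its rows. SCARNA3 with osimertinib turned to -0.37 without osimertinib replicate 1. Among single small RNAs, 728 values kept their side of the threshold with 1 array left out, 41 lost and 13 gained a call. In 1 case the sign turned with a call before or after. Under the other settings 639 kept their side, 13 lost and 23 gained a call and 0 turned in that way. Sign changes between values that were not called were counted as kept, such as VTRNA2-1 with osimertinib (0.26, and -0.42 without osimertinib replicate 1). Signal over background was not measured, so dim RNAs such as SCARNA15 and VTRNA1-2 are the least sure.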
